A study of Mus musculus with 9 samples.

Results

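The genes described here shape the triad, the junction at which a transverse tubule (T-tubule) of the muscle fibre meets 2 cisternae of the sarcoplasmic reticulum (SR). They were taken by their symbols: Jph1, Jph2, Jsrp1, Trdn, Asph, Bin1, Mtm1, Cav3, Tmem38a and Fkbp1a, 10 of the 55471 Ensembl genes counted. All 10 were found and all 10 passed the filter on low counts. Their RNA was counted in the gastrocnemius, a calf muscle, of 5 Shank3Δ11(-/-) mice (KO1 to KO5) and 4 Shank3(+/+) mice (WT1 to WT4), taken at postnatal day 0 to 1, with 1 library per mouse. The Shank3Δ11(-/-) animals carry a deletion of exon 11 of Shank3, the gene of a scaffold protein, on both alleles, came from matings of C57BL/6JRj heterozygotes and, per the study, still make some Shank3 isoforms. The wildtype animals are C57BL/6. The study left KO2 and KO4 out of its comparison for too few total reads. Here both versions are given, the 3 remaining mice KO1, KO3 and KO5 with the 4 wildtype mice (7 mice) and all 9 mice. The labels name neither litter nor sex, so the p-values measure the spread between these mice only.

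At the triad the action potential that runs down the T-tubule is sensed by the dihydropyridine receptor, which opens the ryanodine receptor of the facing SR and releases calcium. Junctophilins tie the membranes together, triadin and its partners hold calsequestrin and the release channel in the junctional SR, and Bin1, myotubularin and caveolin-3 build or maintain the tubule. In mice this network is immature at birth, when the tubules still run partly lengthwise and have yet to take up their adult positions.

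The libraries held 26444372 (KO5) to 40471957 (KO4) counts each (median 31435732), and that of KO2 held 28211941. Values are given as CPM, which relate a count to the size of its library, here after TMM scaling, which corrects for differences in library composition. Shank3 itself lay between 25.7 and 34.8 CPM in Shank3Δ11(-/-) and between 32.7 and 38.6 CPM in Shank3(+/+). The ranges overlapped, and a count over the whole gene does not check the loss of 1 exon. The tissue label was checked against muscle fibre genes. All 12 were counted and together gave 73160 to 78151 CPM in Shank3Δ11(-/-) and 71051 to 79740 CPM in Shank3(+/+). Xist, named here because the labels give no sex, divided the mice into KO3, KO5, WT3 and WT4, at 621 to 927 CPM, and the rest, at 3.21 CPM in KO4 and at most 0.22 CPM in KO1, KO2, WT1 and WT2.

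Promoter windows of RefSeq on GRCm38.p6 were given for 5 of the 10 genes: Jph2, Cav3, Fkbp1a, Tmem38a and Mtm1. The 120 bases before the start site are shown for the first 4, as genes with different profiles over the mice. Jph2, Cav3 and Tmem38a had r of 0.36 to 0.70 with each other and Fkbp1a had r of -0.38 to -0.12 with them, and none of these pairs had an adjusted p below 0.05 (pairs are described below). Capitals mark CAGCTG, the E-box core favoured by the myogenic factors, and CATTCC, read as GGAATG on the other strand, the core of the MCAT element of TEAD factors. Both strands were searched. Sequences run 5′ to 3′ on the gene's strand.
Jph2 (chr2:163397994-163398113, minus strand): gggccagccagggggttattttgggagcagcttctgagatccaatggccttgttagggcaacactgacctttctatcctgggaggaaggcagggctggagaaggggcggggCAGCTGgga
Cav3 (chr6:112459385-112459504, plus strand): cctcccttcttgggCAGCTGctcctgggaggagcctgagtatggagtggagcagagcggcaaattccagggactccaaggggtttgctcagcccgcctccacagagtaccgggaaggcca
Tmem38a (chr8:72571703-72571822, plus strand): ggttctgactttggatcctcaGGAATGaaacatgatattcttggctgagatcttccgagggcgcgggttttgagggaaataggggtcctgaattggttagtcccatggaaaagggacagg
Fkbp1a (chr2:151542363-151542482, plus strand): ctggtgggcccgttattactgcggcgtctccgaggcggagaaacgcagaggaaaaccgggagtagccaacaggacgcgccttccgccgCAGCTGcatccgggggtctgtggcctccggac

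CAGCTG began 9 bases before the start of Jph2 used here, 106 before that of Cav3 and 32 before that of Fkbp1a. It began 29 bases before another RefSeq start of Jph2. It was present in 16.3% of the 32851 promoter windows of 300 bases, and was in neither the Tmem38a window nor the Mtm1 windows. CATTCC was found in the windows of Tmem38a and Cav3 and in 14.7% of all windows. Jph2 also held the GC box GGGCGG, which 35.7% of windows have. The RefSeq start of Tmem38a lies upstream of the GENCODE start of the gene. These are matches of letters and show no binding.

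To compare levels between genes, CPM were divided by the length of all annotated exons in kilobases (kb). On this scale Bin1, which bends membrane into tubules, stood highest with 222 ± 26.6 CPM per kb (SD, n = 9). Cav3, the muscle caveolin, followed with 183 CPM per kb (156 to 213 over the mice), and Tmem38a, the counter-ion channel TRIC-A of the SR, with 177 ± 11.6. Bin1 exceeded Cav3 in all 9 mice, while Cav3 exceeded Tmem38a in 5 of 9, so these neighbours were not separated. Jsrp1, also called JP-45, an SR protein that contacts the dihydropyridine receptor and calsequestrin, came next at 101 ± 21.2 CPM per kb. Fkbp1a (FKBP12, a stabiliser of the closed ryanodine receptor) gave 62.5 ± 6.63, Trdn (triadin) 57.0 ± 13.6 and Jph2 40.8 ± 4.98. The ranges of Fkbp1a and Trdn overlapped, and so did those of Trdn and Jph2. Jph1 had 23.3 ± 4.33 CPM per kb, below Jph2 in every mouse, and Asph, whose gene encodes junctin, junctate and the aspartyl hydroxylase, 9.30 ± 0.777. Mtm1, the phosphoinositide phosphatase myotubularin, was lowest with 0.562 ± 0.0974. Of the 10 genes 9 lay above 3.38 CPM per kb, the median over all 21735 genes tested in 9 mice.

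Division by all exons understates the level of a gene of which the muscle makes a short form. Asph has 15 coding transcripts in GENCODE M21, with coding sequences from 220 to 2223 bases, and Trdn has 7, from 168 to 2079 bases. The count is of the gene, so junctin and the hydroxylase, or the triadin forms, were not told apart. Asph also shares 2302 exon bases with Clvs1 on the opposite strand, which had 2171 counts against 42518 for Asph, and the strand setting of the counting is not given in the sources used here. For Bin1 the shared stretch with A830052D11Rik was 256 bases and for Jph1 that with Gm28376 was 34. Among related genes outside the 10, the neuronal junctophilins were low, with 0.601 CPM per kb for Jph4 and 0.0451 for Jph3 over the 9 mice. Fkbp1b, the FKBP12.6 of heart, gave 2.15 CPM per kb against 62.5 for Fkbp1a. Tmem38b, the widely expressed TRIC-B, gave 17.5 CPM per kb against 177 for Tmem38a.

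**Figure D1:**
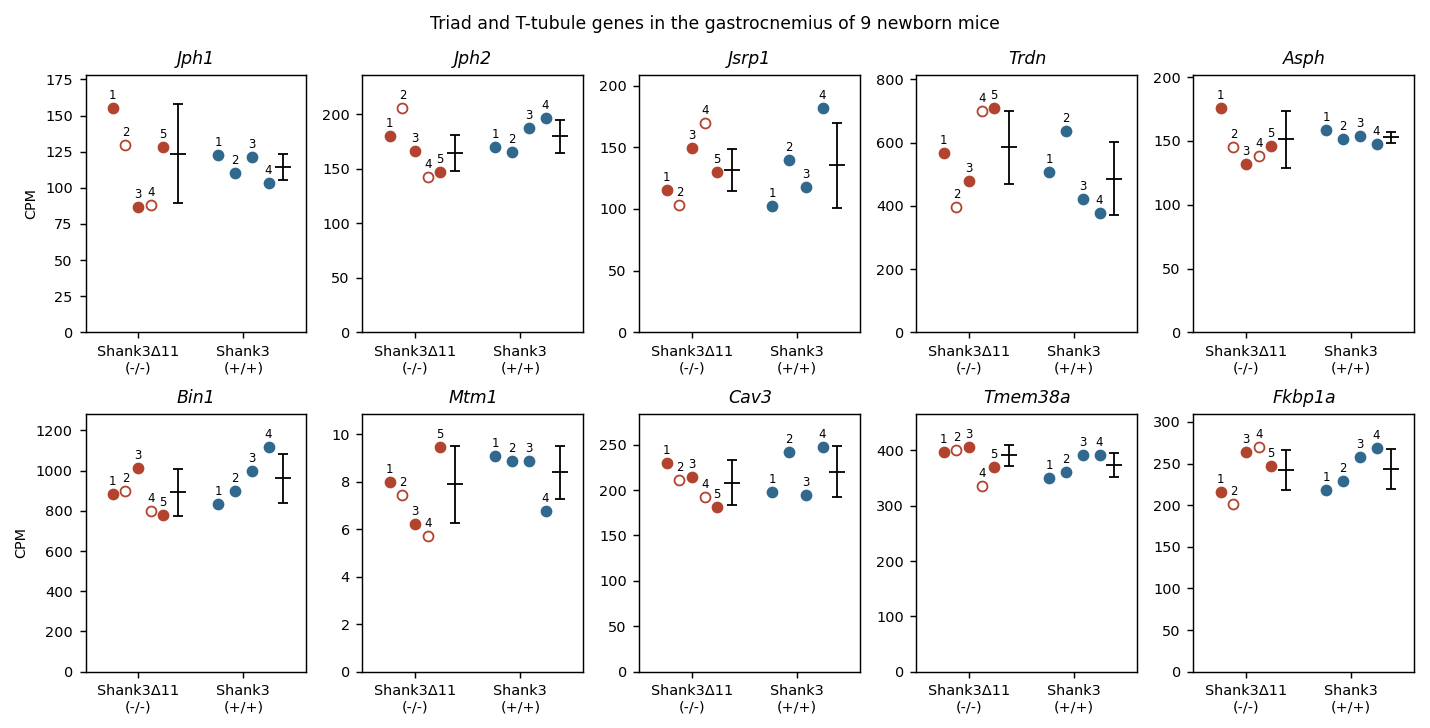
CPM of each gene (vertical axis, from 0) in every mouse, with the mouse number beside its point. Red is Shank3Δ11(-/-), blue is Shank3(+/+), open circles are KO2 and KO4, and the bars give mean ± SD of KO1, KO3 and KO5 and of WT1 to WT4. In all 10 panels the genotypes overlap.

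The comparison of the genotypes asks whether loss of exon 11 of Shank3 goes with a change in the RNA of the triad in newborn muscle. No gene passed the test, the quasi-likelihood test of edgeR fitted to all genes. None of the 10 genes was called (unadjusted p below 0.05 with FDR, the p adjusted over all genes tested, below 25%), where 0% of the 21809 genes tested in 7 mice were called, and 0 of 10 had a p below 0.05, against 2.08% of those genes. In all 9 mice the number with p below 0.05 was again 0 of 10, against 2.03% of 21735 genes. DESeq2 and limma-voom also gave 0 of 10 by both criteria, where 1.80% and 1.95% of all genes had a p below 0.05 and DESeq2 called 6 genes. At such shares, 0 of 10 does not set the 10 genes apart. In every gene of the 10 the CPM of the genotypes overlapped, whereas 2.84% of genes had ranges that did not overlap in 7 mice and 0.704% in 9 mice. The median log2 fold change (Shank3Δ11(-/-) over Shank3(+/+)) of the 10 was -0.03, beside -0.01 over all genes, with 3 genes higher and 7 lower.

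The junctophilins were taken first. Jph1, the lower of the pair per kb in every mouse, was counted at 155 CPM in KO1, 87.0 in KO3 and 128 in KO5, with 129.6 in KO2 and 88.3 in KO4. In Shank3(+/+) it was at 123, 111, 121 and 103 CPM. KO3 and KO4 lay below every wildtype mouse and KO1, KO2 and KO5 above every one, so the Shank3Δ11(-/-) mice spread on both sides. The means were 124 ± 34.3 CPM (SD, n = 3) and 114 ± 9.22 CPM (SD, n = 4), a log2 fold change of 0.11 (SE 0.17, FDR = 1.00; exact permutation test p = 0.743).

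Jph2, the junctophilin of heart that skeletal fibres also make, had 180.3 CPM in KO1, 166 in KO3 and 147 in KO5, and 206 and 143 in KO2 and KO4. The wildtype mice had 169.9, 165, 187 and 197 CPM. The highest and the lowest of the 9 values are both from Shank3Δ11(-/-), KO2 and KO4. The log2 fold change was -0.13 (SE 0.11, FDR = 1.00), with a 95% interval from -0.37 to 0.12.

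Triadin anchors calsequestrin to the ryanodine receptor, and its RNA had the largest fold change of the 10 in 7 and in 9 mice. Without KO5, or with a block for the replicate number, Mtm1 had a larger one, downward (log2 -0.25 without KO5). Trdn was at 567, 478 and 709 CPM in KO1, KO3 and KO5, at 397 in KO2 and 699 in KO4, and at 508, 638, 421 and 378 in WT1 to WT4. KO4 and KO5 exceeded all wildtype mice, while KO2 was below all but WT4. With 585 ± 116 CPM (SD, n = 3) against 486 ± 115 (SD, n = 4) the log2 fold change was 0.27 (SE 0.19, p = 0.187, FDR = 1.00), and the exact permutation test over 35 splits gave p = 0.257. Its 95% interval, from a 0.899-fold to a 1.62-fold level, is the widest of the 10. With 1 mouse left out the log2 fold change ran from 0.10 without KO5 to 0.43 without WT2, the latter with an unadjusted p below 0.05 and no call, and it was 0.17 without WT4.

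Jsrp1 had 115, 149 and 129.6 CPM in KO1, KO3 and KO5, 103 in KO2 and 169.8 in KO4, and 103, 139.7, 118 and 182 CPM in the wildtype mice. The spread within each genotype was wide, 131 ± 17.2 CPM (SD, n = 3) and 135 ± 34.3 CPM (SD, n = 4), and the log2 fold change was -0.05 (SE 0.18, FDR = 1.00). Asph was at 176, 132 and 146 CPM in KO1, KO3 and KO5 and at 145 and 138 in KO2 and KO4. In Shank3(+/+) its values were 158, 151, 154 and 148, an SD of 4.45 CPM (n = 4), below that of Jsrp1, whereas in Shank3Δ11(-/-) its SD was 22.3 (n = 3) and not below it. The difference in spread was not tested. The log2 fold change of Asph was -0.02 (SE 0.11, FDR = 1.00).

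Of the tubule genes, Bin1 was counted at 883, 1012 and 779 CPM in KO1, KO3 and KO5, at 899.5 in KO2 and 799.7 in KO4, and at 835, 897, 998 and 1115 in WT1 to WT4. WT4 was the highest and KO5 the lowest mouse. The log2 fold change was -0.11 (SE 0.14, FDR = 1.00). Cav3 gave 229, 215 and 181 CPM, with 211 and 192 in KO2 and KO4, beside 198, 242, 194 and 247 CPM in the wildtype mice, a log2 fold change of -0.08 (SE 0.13, FDR = 1.00). Here too KO5 was lowest and WT4 highest.

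Mtm1, which is mutated in X-linked myotubular myopathy and lies on the X chromosome, was the least abundant per kb. It was counted at 7.999, 6.24 and 9.45 CPM in KO1, KO3 and KO5, 7.45 and 5.72 in KO2 and KO4, and 9.09, 8.88, 8.88 and 6.76 in WT1 to WT4. Its log2 fold change was -0.09 (SE 0.18, FDR = 1.00) in 7 mice and -0.18 in 9 mice. With 198 to 300 counts per mouse, counting error alone came to at most 7.11% of a value, against 17.3% between mice. For the other 9 genes it was at most 1.90% against 6.56% to 23.9% between mice.

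Tmem38a varied least, from 335 CPM in KO4 to 405 in KO3. It was at 397, 401 and 371 in KO1, KO2 and KO5 and at 349.8, 361, 391 and 391 in the wildtype mice (log2 fold change 0.07, SE 0.10, FDR = 1.00). Fkbp1a was at 216, 264 and 246 CPM in KO1, KO3 and KO5, 202 in KO2 and 269 in KO4, and at 218, 229, 258 and 268 in WT1 to WT4. Its means, 242 ± 24.4 CPM (SD, n = 3) and 243 ± 23.7 CPM (SD, n = 4), were nearly equal and the 95% interval of the log2 fold change ran from -0.27 to 0.26.

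The widest bounds of these intervals were those of Trdn on the upper side and Mtm1 on the lower, where 7 mice still allow a level of 0.713-fold. For Tmem38a the interval ran from 0.898-fold to 1.22-fold. In bulk tissue fewer fibres and less RNA per fibre cannot be told apart.

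**Figure D2:**
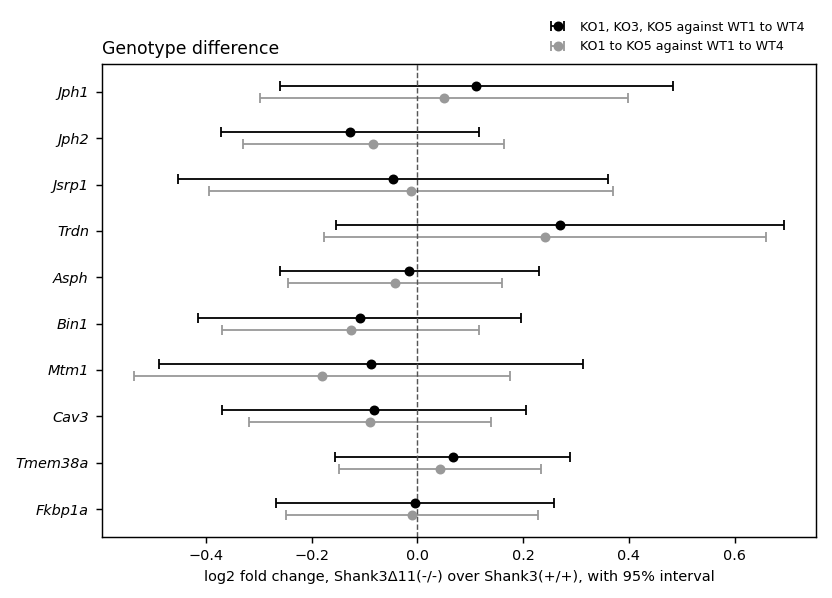
Log2 fold change of each gene, Shank3Δ11(-/-) over Shank3(+/+) (horizontal axis), with its 95% interval from edgeR, for 7 mice (black) and 9 mice (grey). Every interval crosses 0, and Trdn has the highest estimate, 0.27 in 7 mice and 0.24 in 9.

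A wider list of 40 genes of the triad, the T-tubule and the SR, chosen by what they are known for, was read in the same fit. Of the 39 tested, 19 were higher and 20 lower in Shank3Δ11(-/-), none had a p below 0.05 in 7 or in 9 mice, and the median log2 fold change was -0.01. The calcium release channel Ryr1 had a log2 fold change of 0.04 (SE 0.16), its voltage sensor Cacna1s 0.15 (SE 0.11) and the SR calcium store Casq1 0.02 (SE 0.11), all with FDR = 1.00. Ryr1 gave 699.8 ± 129 CPM (SD, n = 3) against 679.8 ± 105 (SD, n = 4), and Casq1 838 ± 86.1 against 825 ± 37.9. Dysf, dysferlin of membrane repair and the tubule, was at 0.07 (SE 0.16), and Cav1, the caveolin of endothelial and fat cells, at 0.24 (SE 0.13, FDR = 1.00), and at 0.34 without KO1 and 0.32 without WT3, each with an unadjusted p below 0.05 and no call. Of all genes, 4.35% had a p below 0.05 without KO1 and 1.85% without WT3. Fkbp1b was at 0.35 (SE 0.20, FDR = 1.00) and Tmem38b at 0.06 (SE 0.13).

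Markers of other cells were read beside these results. Adipocyte markers (6 of 6 counted) summed to 290 to 1115 CPM in KO1, KO3 and KO5, the top value in KO5, and to 211 to 289 CPM in Shank3(+/+). Schwann cell markers (5 of 5) also peaked in KO5, at 416 CPM against 110.4 to 159 CPM in wildtype mice, and erythroid markers (4 of 4) in KO1, at 3376 CPM against 848 to 1142. KO4 had the highest fibroblast and matrix sum (7 of 7 counted), 33596 CPM against 16812 to 26813 in Shank3(+/+), the highest cartilage and bone sum (5 of 5), 259 CPM against 73.9 to 98.3, and the highest tendon sum (4 of 4), 995 CPM against 515 to 736. No marker of any list was at 0 in all mice. KO5 is also the lowest mouse for Bin1 and Cav3 and the highest for Trdn and Mtm1. Endothelial markers (6 of 6) summed to 583 CPM in KO2 and 829.9 CPM in KO4, the ends of the Shank3Δ11(-/-) range, and to 640.2 to 728 CPM in Shank3(+/+). Smooth muscle and pericyte markers (5 of 5) ran from 605 to 833 CPM and from 673 to 763 CPM. Relations of the 10 genes with these lists are given with the pairs below.

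The second question was whether the 10 genes vary together from mouse to mouse. They did not form 1 block. Over the 45 pairs, Pearson's r of log2 CPM across the 9 mice had a median of 0.00 and 23 were positive and 22 negative, while the median over all pairs of the genes tested was also 0. The median size of r was 0.34, beside 0.32 over all gene pairs. A size of 0.8 or more was reached by 3 of 45 pairs, or 6.67%, against 2.88% of all pairs. Exact permutation tests over the 362880 orderings gave 9 pairs with p below 0.05, and 0 after Benjamini-Hochberg adjustment over the 45 pairs. The share of all gene pairs under such p limits was not taken, so counts of pairs by p do not set the 10 genes apart.

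The pair furthest from 0 was Jph2 and Trdn, which moved in opposite directions (r = -0.91, exact permutation p = 0.00116, adjusted 0.0521; Spearman's rho = -0.90, p = 0.00203, adjusted 0.0676). KO4 and KO5 had the highest Trdn and the lowest Jph2, and WT4 and KO2 the reverse, so the end with low Trdn held 1 mouse of each genotype and the other end 2 of Shank3Δ11(-/-). Without KO2 and KO4, the mice furthest from the median of Jph2, r was -0.86, and leaving out any 1 mouse gave -0.94 to -0.88. Trdn also ran against Bin1 (r = -0.80, rho = -0.87, exact permutation p = 0.0111 and 0.00451, adjusted 0.125 and 0.0676). That relation fell to -0.61 without KO4 and KO5.

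Jph2, Bin1, Tmem38a and Cav3 had a positive r in all 6 of their pairs, from 0.36 to 0.70, and each of them had a negative r with Trdn, though none of these pairs had an adjusted p below 0.05. Below 25%, the limit used for the genotype test, lay 12 of the 45 pairs, among them Jph2 with Tmem38a, Jph2 with Bin1 and Bin1 with Tmem38a but none with Cav3. Cav3 was the least firm of them. Its r with Bin1 fell from 0.62 to 0.16 without KO5 and WT4, and its r with Trdn turned from -0.35 to 0.23 without KO4 and KO5, so both rested on those mice. Of these the pair Jph2 and Tmem38a had r = 0.70 and Jph2 and Bin1 r = 0.68 (exact permutation p = 0.0391 and 0.0468, adjusted 0.220 and 0.231). Without KO2 and KO4 these were 0.43 and 0.79. This grouping was read from the values and was given no test of its own. With each genotype centred on its own mean, the r of Jph2 and Trdn was -0.90, and with the Xist divisions centred it was -0.94.

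Jph1, Asph and Mtm1 also had a positive r with each other, again a grouping read from the values. Asph and Mtm1 had r = 0.58 (exact permutation p = 0.101, adjusted 0.324). Jph1 and Asph were related with r = 0.84 (exact permutation p = 0.00506, adjusted 0.114), but with rho only 0.58 (p = 0.108), and r was 0.67 without KO3 and KO4. KO1 was the top mouse for both and KO3 was at the bottom for both. Jph1 and Mtm1 had r = 0.71, which dropped to 0.20 without KO3 and KO4 and so rested on them. Jsrp1 and Fkbp1a formed a pair of their own (r = 0.82, rho = 0.87, exact permutation p = 0.00951 and 0.00451, adjusted 0.125 and 0.0676, and r = 0.72 without KO4 and WT4). Both ran against Jph1, Jsrp1 with r = -0.75 and Fkbp1a with -0.73. The junctophilins themselves were not closely related, with r = 0.36 between Jph1 and Jph2.

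**Figure D3:**
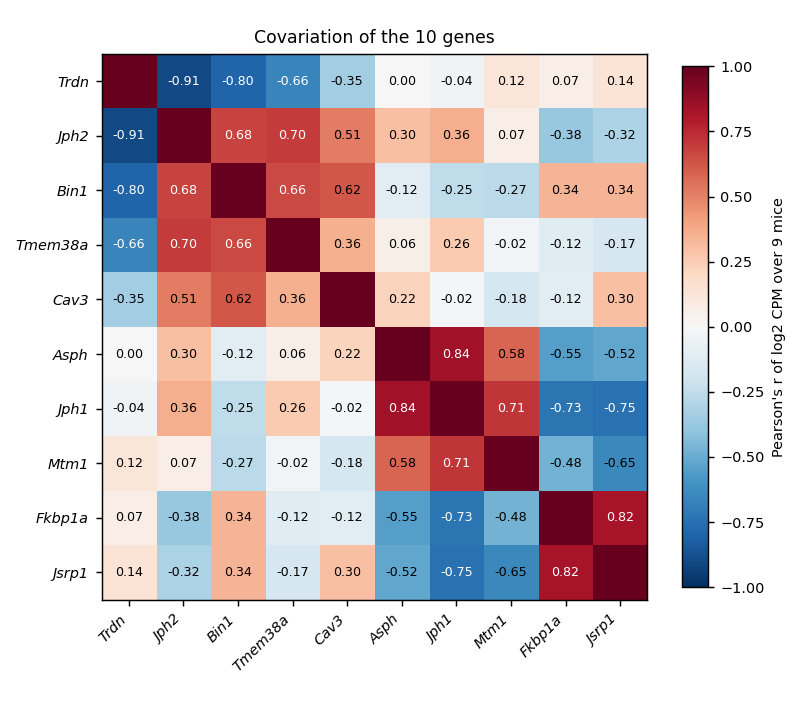
Pearson's r of log2 CPM over the 9 mice for each pair of the 10 genes, from -1 (blue) to 1 (red). Trdn is negative with Jph2, Bin1, Tmem38a and Cav3, and Jph1 is positive with Asph and Mtm1 and negative with Jsrp1 and Fkbp1a.

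**Figure D4:**
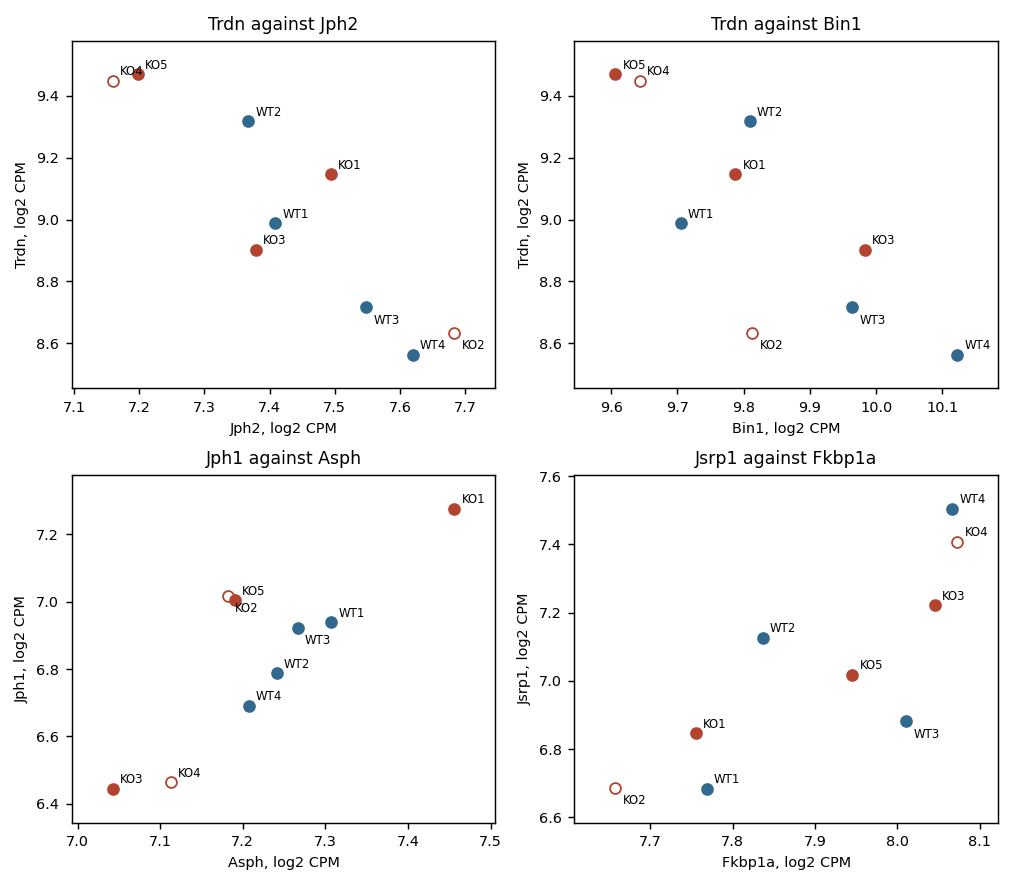
Log2 CPM of 4 pairs by mouse, red for Shank3Δ11(-/-), blue for Shank3(+/+) and open for KO2 and KO4. Trdn falls as Jph2 (r = -0.91) and Bin1 (r = -0.80) rise, and Jph1 rises with Asph (r = 0.84) and Jsrp1 with Fkbp1a (r = 0.82).

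The pairs were set beside measures of the libraries. The share of counts on mitochondrial genes ran from 3.81% in WT4 to 7.88% in KO4. Trdn followed it with r = 0.90 and Jph2 ran against it with r = -0.89 (exact permutation p = 0.00108 and 0.00104; both adjusted 0.0514 over 190 relations of the 10 genes with 19 measures, of which 2 passed 0.05). Spearman's rho was 0.87 and -0.92 (adjusted exact permutation p = 0.171 and 0.0623). Without KO4 and WT2, r was 0.89 for Trdn and -0.88 for Jph2. A size of 0.8 or more with this share was found in 5.00% of all genes. With the regression on it removed, the r of Jph2 and Trdn moved from -0.91 to -0.51, that of Trdn and Tmem38a from -0.66 to -0.31, that of Jph2 and Bin1 from 0.68 to 0.37 and that of Jph2 and Tmem38a from 0.70 to 0.42. Jph2 and Jsrp1 turned from -0.32 to 0.13. Trdn and Bin1 went from -0.80 to -0.73, Jsrp1 and Bin1 from 0.34 to 0.82, and Jph1 and Trdn from -0.04 to 0.75. In all, 28 of the 45 pairs came nearer to 0 and 17 went further from it. The part of the muscle and of the preparation in the mitochondrial share was not tested.

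Marker lists of 11 other cell types were among the measures. Jph2 ran against the endothelial markers (r = -0.92, rho = -0.92, exact permutation p = 0.000411 and 0.00131, adjusted 0.0390 and 0.0623, and r = -0.83 without KO2 and KO4). It also ran against the smooth muscle and pericyte markers (r = -0.82, rho = -0.85, adjusted exact permutation p = 0.174 and 0.192, and r = -0.65 without KO2 and KO5). These were the 2 of 110 relations with other cell lists that reached a size of 0.8, which 5.43% and 1.69% of all genes reached. Trdn had r = 0.77 with the endothelial markers (rho = 0.78, adjusted exact permutation p = 0.236 and 0.389, and r = 0.65 without KO2 and KO4). Its r with the smooth muscle and pericyte markers was 0.63, and 0.26 without KO2 and KO5. With the regression on the endothelial markers removed, chosen after these values were seen, the r of Jph2 and Trdn was -0.78. In the same values Fkbp1a moved further, with Trdn from 0.07 to -0.84, with Jph2 from -0.38 to 0.62 and with Bin1 from 0.34 to 0.86. The part of these cells in the values of the 10 genes was not tested further.

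The second measure was the balance of long and short transcripts, taken in each mouse as the median deviation of the 2716 longest genes from their mean log2 CPM minus that of the 2716 shortest. It ran from -0.28 in WT4 to 0.22 in KO2. Jsrp1, whose exons add up to 1333 bases and which is among the short genes, followed it almost exactly in reverse (r = -0.97, rho = -0.97, exact permutation p = 2.76e-05, adjusted 0.00524, and r = -0.96 without KO2 and WT4). In all genes a size of 0.8 or more was reached by 7.73%. Fkbp1a had r = -0.78 (exact permutation p = 0.0155, adjusted 0.269) and Jph1 0.67 (p = 0.0490, adjusted 0.517). Cav3 (1157 bases) and Tmem38a (2142 bases), also short, had r of only -0.31 and 0.19. Of the long genes, Asph and Mtm1 had 0.43 and 0.55, and Trdn (9352 bases) had -0.16. With the regression on this index removed, the r of Jsrp1 and Fkbp1a went from 0.82 to 0.45 and that of Jph1 and Jsrp1 from -0.75 to -0.57, while Jph2 and Trdn stayed at -0.92 and Jph1 and Asph at 0.82. With the index as a covariate in 7 mice, chosen after the values were seen, the SE of the Jsrp1 fold change narrowed from 0.18 to 0.08 and the log2 fold change was -0.01.

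**Figure D5:**
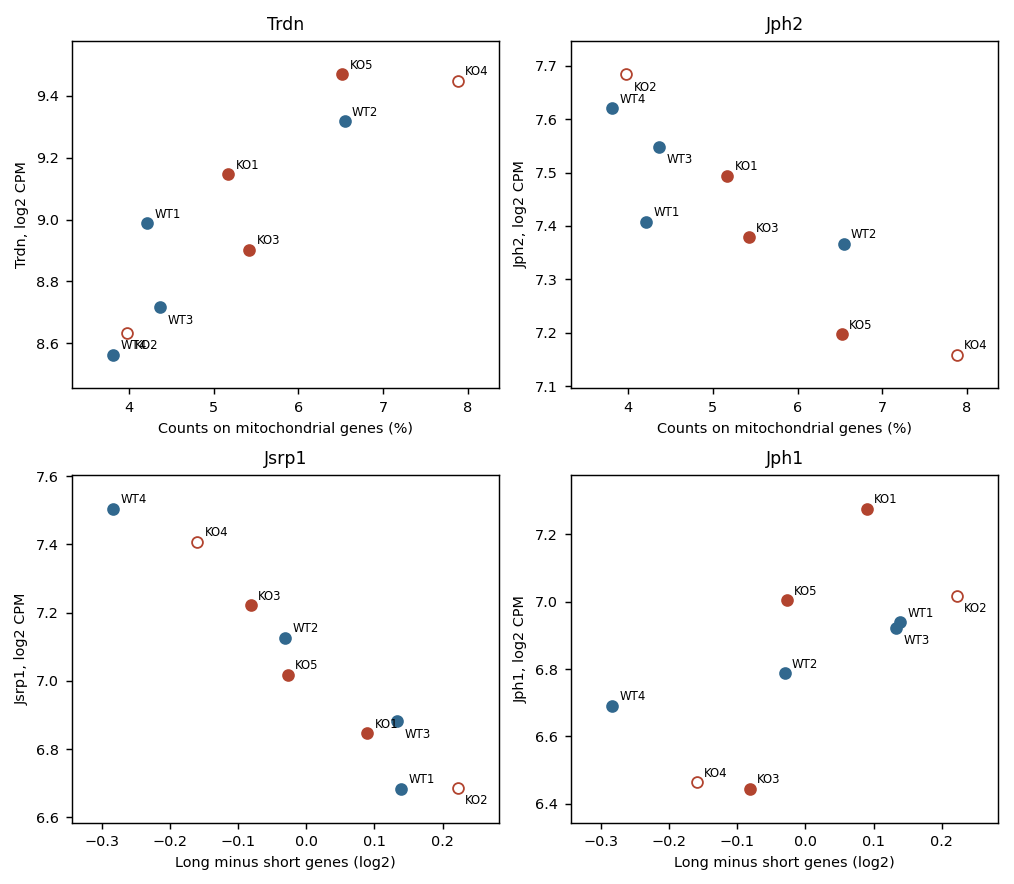
Log2 CPM of Trdn and Jph2 against the percentage of counts on mitochondrial genes (top), and of Jsrp1 and Jph1 against the difference of long and short genes in log2 units (bottom), with the mouse beside each point. The 4 values of r are 0.90, -0.89, -0.97 and 0.67, and both genotypes (red and blue, open for KO2 and KO4) lie along each relation.

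The muscle fibre markers, averaged over 12 genes, moved little between mice, over a range of 0.19 on the log2 scale. Under TMM scaling Jsrp1 had the highest r with them, 0.70 (rho = 0.68, exact permutation p = 0.0317 and 0.0503, adjusted 0.377 and 0.455), and 1.42% of all genes reached a size of 0.8. None of the 10 genes had an adjusted p below 0.05 for this measure. With library totals alone in place of TMM scaling the order turned: the r of Jsrp1 was 0.29, below Bin1 at 0.71, Cav3 at 0.65, Tmem38a at 0.64 and Jph2 at 0.60.

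Beside the triad's channels, Tmem38a ran with the voltage sensor Cacna1s (r = 0.87, rho = 0.68, exact permutation p = 0.00357 and 0.0503, adjusted 0.136 and 0.455, and r = 0.62 without KO4 and WT1). Jph1 ran with calsequestrin Casq1 (r = 0.83, exact permutation p = 0.00702, adjusted 0.191, and r = 0.61 without KO1 and KO4). Fkbp1a had r = 0.75 with Ryr1, the channel its protein binds, and -0.71 with Casq1 (adjusted exact permutation p = 0.352 and 0.432, and r = 0.63 and -0.57 without the 2 furthest mice). Asph had the opposite signs, r = -0.74 with Ryr1 and 0.71 with Casq1 (adjusted exact permutation p = 0.274 and 0.352), which fell to -0.46 without KO1 and WT1 and 0.40 without KO1 and KO4. For Trdn, the protein partner of both, no relation with Ryr1 or Casq1 had a p below 0.05 in the exact permutation test.

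Fkbp1a was also read by the level of Xist. KO3, KO5, WT3 and WT4, the mice with high Xist, had 246 to 268 CPM, and KO1, KO2, WT1 and WT2 202 to 229 CPM, while KO4, low in Xist, had 269. In a fit with genotype and the Xist division over 9 mice, read after these values were seen, Fkbp1a was higher by 0.19 on the log2 scale (SE 0.10, FDR = 0.601) and Jsrp1 by 0.20 (SE 0.17, FDR = 0.757). None of the 10 was called, against 0.143% of all genes. Apart from KO4, the division by Xist is also a division by mouse number, 1 and 2 against 3 to 5, so that sex and anything else shared by the numbers cannot be told apart in those mice. In the interaction test of edgeR between genotype and the Xist division the lowest p of the 10 genes was 0.0974, for Trdn. The share of all genes with a p below 0.05 was not taken for it, so this does not set the 10 apart.

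The mean of the 10 standardized profiles was lowest in KO4 (-0.56) and highest in WT4 (0.47) and KO1 (0.42). Among the 10865 other genes with at least 10 CPM, the 5 closest to it were Gm14111 (r = 0.91), Atp5a1 (0.89), Gm13464 (0.89), Slfn5os (0.89) and Vdac2 (0.86). Atp5a1, the alpha subunit of mitochondrial ATP synthase, and Vdac2, a channel of the outer mitochondrial membrane, are widely expressed, and the other 3 carry no name of function. These likenesses are over 9 mice and were picked as the highest of many.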

How the data were processed

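RNA of the gastrocnemius of 9 newborn mice was sequenced, 1 library per mouse. The deposited values are counts of reads per Ensembl gene, which the authors made by mapping with HISAT2 to mm10, keeping concordant reads and counting with featureCounts. For the annotation release, the strand setting and multi-mapping reads nothing is given in the sources used. Symbols, positions and exon lengths came from GENCODE M21 and its gene names for 55144 of the 55471 IDs.

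The 10 genes and the lists were chosen with earlier results of these data known. Fits across all genes used edgeR 4.0.16 in R 4.3.3 in place of the limma analysis that the study describes, because the table holds counts: filterByExpr (minimum count 10, total 15), TMM factors, the quasi-likelihood F test with robust dispersion and FDR by Benjamini and Hochberg over every gene tested. A call needed p below 0.05 and FDR below 25%, the limits the study used. With limma the study reported differing genes at these limits, and a raised set of SR calcium transport genes. Why no gene passed in the main fit here was not tested. Beside it stood a 2-sided exact permutation test of mean log2 CPM (35 splits of 7 mice, smallest p 0.0286, and 126 of 9 mice, smallest p 0.00794). Log2 CPM used a prior count of 2. Correlations were tested over all orderings of the mice (SciPy 1.17.1).

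The text names the 10 genes, wider-list genes with p below 0.05 (none in 7 or 9 mice, while Dysf, Mtmr2, Cav1, Cav2 and Slmap had one under an alternative) together with Ryr1, Cacna1s, Casq1, Dysf, Tmem38b, Fkbp1b and Cav1, the 5 genes nearest to the mean profile, Shank3 and Xist. Overlapping genes, Jph3, Jph4 and marker lists were added after their values were seen or as checks. Tests were tried on simulated data. Totals of 26444372 to 40471957 counts set the counting error, which at the lowest count of each gene was 0.694% to 7.11%. Alternatives were other normalizations, no filter, DESeq2 1.42.0, limma-voom 3.58.1, the replicate number as a block, the Xist division, and each mouse left out.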

Additional observations from a re-analysis of the deposited data

Results flagged for a closer look

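Each of the 10 genes was checked for a mouse far from the others within Shank3(+/+) and within Shank3Δ11(-/-), 20 checks in all, of which chance marks about 1 in 20. A single value stood apart: Mtm1 was at 6.76 CPM in WT4, while WT1, WT2 and WT3 had 8.88 to 9.09 CPM. With 4 mice in the group the gap to the nearest mouse exceeded the 95% limit of Dixon's test.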

How the results depend on the processing

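None of the 10 genes was called under any of the 20 alternatives, whose lowest unadjusted p was 0.0315. The directions of small differences were not stable. Of 200 values, 23 turned sign. In 7 mice KO5, WT2 and WT4 share their replicate number with no mouse of the other genotype. A block for the number then rests on KO1, KO3, WT1 and WT3. The block put Jph1 at -0.068, Jsrp1 at 0.253, Bin1 at 0.0514, Cav3 at 0.178 and Fkbp1a at 0.0115 in 7 mice, and Jph1 at -0.0261 in 9. Mtm1 moved with it from -0.0875 to -0.343 in 7 mice and from -0.18 to -0.289 in 9. With the Xist division as a covariate Asph was at 0.00268 in 7 mice, and in 9 mice Jsrp1 was at 0.0139 and Fkbp1a at 0.0112. With the length index in 9 mice Jsrp1 was at 0.0316. Fkbp1a was at 3.35e-05 without the filter, 0.000792 with median-of-ratios factors and 0.00080 with DESeq2. Leaving out 1 mouse in turn gave -0.0782 to 0.312 for Jph1, -0.15 to 0.13 for Jsrp1, -0.131 to 0.0766 for Asph, -0.247 to 0.0597 for Mtm1, -0.15 to 0.00088 for Cav3 and -0.0679 to 0.076 for Fkbp1a. Trdn, at 0.0961 to 0.43, Jph2 and Tmem38a kept their signs throughout.

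The number of the 10 with p below 0.05 rose from 0 to 1 under each block (Jsrp1 in 7 mice, Mtm1 in 9) and was 0 to 1 with a mouse left out (Jph1 without KO3, Trdn without WT2). Over all genes the share with p below 0.05 was 3.87% with the block in 7 mice, 2.08% with it in 9, 3.57% without KO3 and 2.53% without WT2. The number higher in Shank3Δ11(-/-) was 6 with the block in 7 mice, 2 with it in 9, 5 with the Xist division in 9, and 3 to 5 with a mouse left out. The median log2 fold change of the 10 turned from -0.03 to 0.03 with the block in 7 mice and to 0.02 without WT4. In the wider list 1 gene (Dysf) had p below 0.05 with the block in 9 mice, 1 (Mtmr2) with the length index in 9, and 0 to 2 with a mouse left out (Cav1 and Slmap without KO1, Cav2 without KO3, Cav1 without WT3). The share of all genes was 2.68% with the length index in 9 mice, 4.35% without KO1 and 1.85% without WT3. Over all genes the calls were 1 without the filter, 6 with DESeq2, 9 and 2 with the block in 7 and 9 mice, 1 with the Xist division in 7, and 0 to 15 with a mouse left out, 15 of them without KO1. For the Xist division, leaving out KO4 was a choice made after its value was seen. It raised the number of the 10 called from 0 to 2, Fkbp1a at 0.269 (FDR = 0.110) and Jsrp1 at 0.337 (FDR = 0.232). Of all genes 16.6% were called, so this says nothing particular of these genes. The causes were not tested. Same-numbered mice deviated together with r of 0.37, 0.05, 0.36 and 0.10 for the numbers 1 to 4, and 2 of 4 wildtype mice correlated best with their own number. The labels give nothing but the number that would pair these mice.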
